A study of Mus musculus with 8 samples.

Results

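The genes followed here mark the macrophage lineage, namely the transcription factors Spi1, Cebpa, Cebpb, Cebpd, Klf2, Klf4 and Runx1 and the identity genes Adgre1 and Lyz2. They were taken by symbol, and make up 9 of the 55487 genes listed, of which all 9 were among the 11796 genes tested. Spi1 encodes PU.1, the ETS-family pioneer factor that opens myeloid enhancers and is needed for macrophages to form. The C/EBP proteins bind beside PU.1, with C/EBPα setting the myeloid fate in progenitors and C/EBPβ and C/EBPδ taking part in the response to bacterial products. RUNX1 acts earlier, in the emergence of blood cells, while KLF2 and KLF4 restrain or shape macrophage activation. Adgre1 encodes F4/80, the surface receptor used to recognise mouse macrophages, and Lyz2 encodes the lysozyme of macrophages and neutrophils.

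The cells were J774A.1, a macrophage line from a BALB/c mouse tumour, and the comparison asks how ursodeoxycholic acid (UDCA), a bile acid, changed cells stimulated with lipopolysaccharide (LPS). Both groups received LPS for 24 h, one alone (LPS, n = 4) and one together with UDCA (LPS + UDCA, n = 4), and the study's methods give doses of 1 μg/mL for LPS and 1 mM for UDCA. No library without LPS was analysed here, so the values show the effect of UDCA on stimulated cells, and the results hold for a single cell line. The labels do not say whether the libraries came from separate cultures, and p-values therefore measure only the spread between these libraries.

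Levels are given as TPM, in which the reads of a gene are divided by its length and scaled to a fixed total, so that genes can be compared with each other. Changes are differences of mean log2(TPM + 1), LPS + UDCA minus LPS, a scale that understates the change of genes of low TPM. TPM keeps no number of reads, and the depth of the libraries is unknown. Within a group the libraries correlated across genes at 0.974 to 0.982, against 0.905 to 0.919 between groups. Of 12 macrophage markers, 11 were tested, of which 7 fell, 3 rose (Adgre1, Fcgr1 and Ptprc) and 1 did not pass, and Mertk was listed at 0 in every library. Over all genes tested, 40.2% rose and 32.3% fell at an FDR under 0.05. The summed level of the list was 4993 to 5312 TPM with LPS and 2606 to 2948 TPM with UDCA, and includes Lyz2, which alone went from a mean of 1988 to 436 TPM. Of 7 neutrophil markers, Ly6g, Elane and Camp were listed at 0 and only S100a8 and S100a9 were tested, which both fell, the list summing to 18.6 to 25.4 TPM with LPS and 2.72 to 9.03 TPM with UDCA. Dendritic, T, B, mast, erythroid, fibroblast and epithelial markers stayed at or under 0.99 TPM in every library. The changes also moved with base composition. Over all genes tested the median change was 0.08, but it was 0.51 in the decile of genes with the lowest GC content of the longest transcript and -0.15 in the decile with the highest. Each member's change is therefore also given with this trend taken off each library, a setting chosen after seeing the data, and the source of the trend was not tested. In that setting the marker Ptprc was at -0.013 (FDR = 0.89) and no longer rose.

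With UDCA, 7 of the 9 members passed an FDR under 0.05. Spi1 and Adgre1 rose, and Cebpa, Cebpb, Cebpd, Klf2 and Lyz2 fell, whereas Klf4 and Runx1 did not pass. Among all genes tested, 40.2% rose and 32.3% fell at the same FDR. A fold change of at least 2 was also reached by Adgre1 upward, where 8.71% of all genes did so, and by Cebpb, Cebpd, Klf2 and Lyz2 downward, where 8.44% did. In all 7 the values with and without UDCA were fully separated. Every LPS + UDCA library lay above every LPS library in 37% of the genes tested and below in 29.9%. For each of these 7 genes the exact 2-sided permutation test gave p = 0.0286, the smallest p that 70 arrangements of 8 libraries allow.

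**Figure D1:**
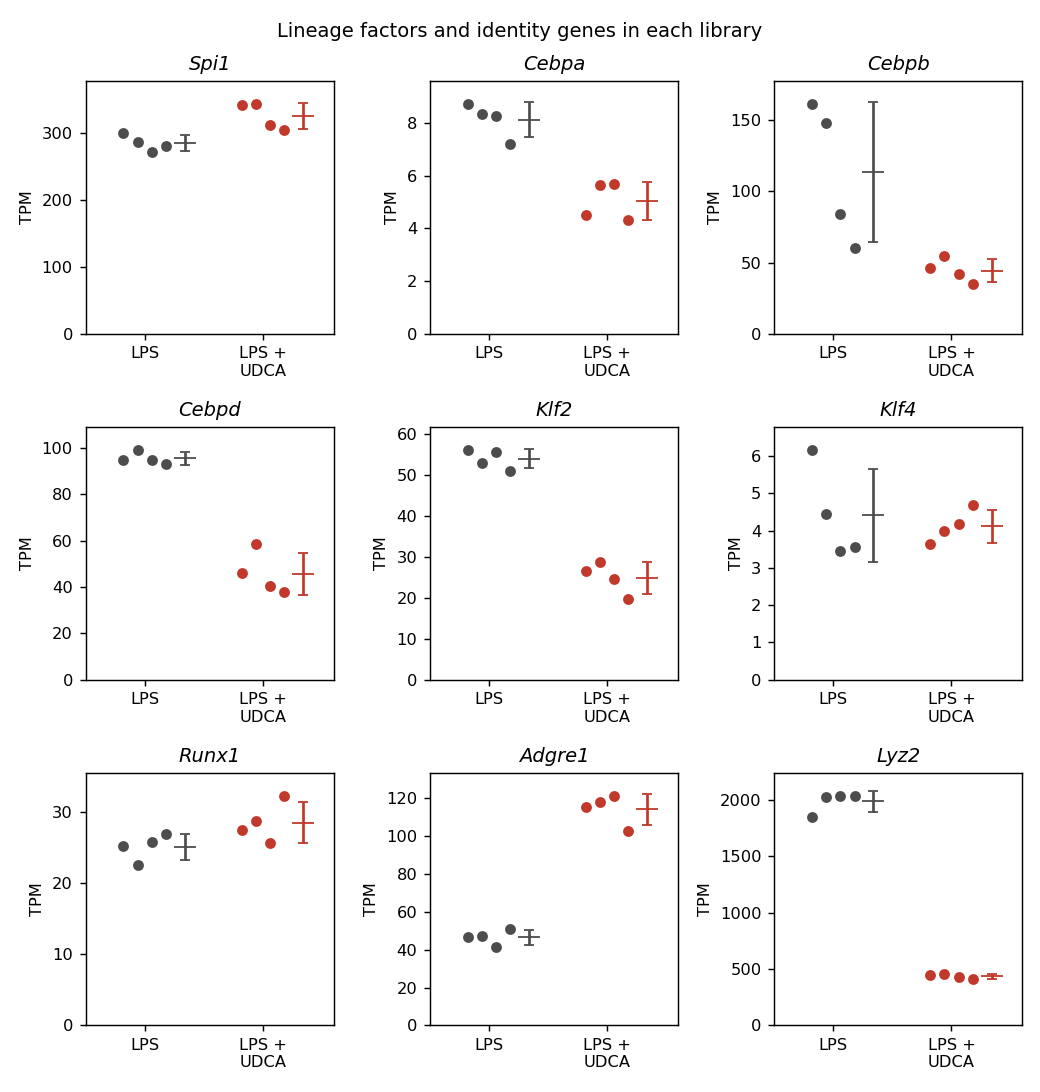
TPM of the 9 genes (y axis, from 0) in the LPS (grey) and LPS + UDCA (red) libraries, with points for replicates 1 to 4 from left to right and the mean ± SD beside them. Lyz2 is at 1848 TPM or more with LPS and 457 TPM or less with UDCA and Adgre1 at 51.04 TPM or less and 102.37 TPM or more, while the groups of Klf4 and Runx1 overlap.

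Spi1, on chr2:91082390-91115756 (GRCm38, plus strand), was the most abundant of the 7 factors. It stood at 300.71, 286.39, 272.63 and 280.92 TPM in the LPS libraries and at 342.10, 343.83, 313.00 and 305.34 TPM in the LPS + UDCA libraries. Every library with UDCA was above every library without it, and replicates 1 and 2 were the higher ones in each group. The mean went from 285 ± 11.8 to 326 ± 19.8 TPM (SD, n = 4), and Spi1 rose by 0.19 on the log2 scale (SE 0.049, FDR = 0.0063). This is a small change, since 5153 of the genes tested had a higher one. It was 0.11 (FDR = 0.072) once the median of all genes was taken off each library, and 0.36 (FDR = 5.2e-06) with the GC trend taken off. Spi1 transcripts have a GC content of 58.9%, above that of 94.1% of the genes tested.

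Of the 14 ETS factors tested out of 19 listed, 6 rose, 6 fell and 2 (Etv3 and Fli1) did not pass, and their median change was 0.05 beside 0.08 for all genes. Of all genes tested 40.2% rose and 32.3% fell. With the GC trend taken off, 4 of the ETS factors rose and 5 fell. Elk3, a repressor of growth-factor response genes, fell from 14.3 ± 0.943 to 5.19 ± 0.930 TPM (log2 change -1.31), and its relative Elk4 rose from 9.80 ± 1.28 to 18.7 ± 1.70 TPM (0.87). Ets2 was second to Spi1 among them, at 125 ± 6.21 TPM with LPS and 114 ± 3.85 TPM with UDCA, a change of -0.14 (FDR = 0.016) that missed the threshold with the GC trend taken off (FDR = 0.055) and under quantile normalization.

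The 3 C/EBP members all fell. Cebpa, a gene of 1 exon on chr7:35119293-35121928 (plus strand), was the scarcest of them, at 8.71, 8.34, 8.24 and 7.18 TPM with LPS and 4.52, 5.64, 5.69 and 4.32 TPM with UDCA. The groups did not overlap, and replicate 4 was the lowest of each. Its mean went from 8.12 ± 0.657 to 5.04 ± 0.724 TPM (log2 change -0.60, SE 0.10, FDR = 5.4e-04).

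Cebpd, the C/EBPδ gene, also has 1 exon and lies on chr16:15887286-15891031 (plus strand). It was at 94.95, 99.29, 94.96 and 93.00 TPM in the LPS libraries, which hardly differed, and at 46.00, 58.45, 40.33 and 37.66 TPM in the LPS + UDCA libraries, which spread more but stayed well below. The mean went from 95.6 ± 2.66 to 45.6 ± 9.24 TPM (log2 change -1.07, SE 0.12, FDR = 3.1e-05). Without LPS + UDCA replicate 4 the change was -0.99, just short of a fold of 2.

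Cebpb, which encodes C/EBPβ and is itself induced by bacterial products, has 1 exon on chr2:167688915-167690418 (plus strand). Its LPS libraries disagreed, with 161.33, 148.15, 83.81 and 60.11 TPM, whereas the LPS + UDCA libraries held 45.89, 54.96, 41.65 and 35.07 TPM. Even the lowest LPS library was above the highest LPS + UDCA library, by 60.11 to 54.96 TPM. The mean went from 113 ± 49.1 to 44.4 ± 8.33 TPM (log2 change -1.24, SE 0.30, FDR = 0.0043), and leaving out any one library gave changes from -1.50 to -1.03. The coefficient of variation of the LPS libraries was 43.3%, where the median over the 2399 genes with an LPS mean of at least 50 TPM was 4.13%, and 22 of the others were as variable.

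The transcripts of Cebpa and Cebpb are rich in G and C, with 62.6% and 67.2% GC, more than 98.9% and 99.8% of the genes tested. That of Cebpd holds 51.6%, more than 61.0% of them. With the GC trend taken off, the changes were -0.42 for Cebpa (FDR = 0.0017), -1.05 for Cebpb (FDR = 0.0052) and -1.04 for Cebpd (FDR = 2.8e-05), so that all 3 still fell. Each also overlaps another gene on the opposite strand. Of the 31-base words of Cebpb transcripts, 19.6% occur in other genes, mostly in Tmem189, which ran at 74.9 to 81.8 TPM with LPS and 61.9 to 71.7 TPM with UDCA. For Cebpd the share was 14.2%, mostly in Spidr (17.2 to 18.9 and 10.9 to 13.4 TPM). If the library kit does not keep the strand, reads of the shared stretches could have gone to either gene, which was not tested.

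The 100 bases before the start of Cebpa (chr7:35119193-35119292, plus strand) and Cebpb (chr2:167688815-167688914, plus strand), from RefSeq on GRCm38.p6, are shown because both genes fell and their windows differ in make-up, with matches to the searched motifs in capitals.
Cebpa: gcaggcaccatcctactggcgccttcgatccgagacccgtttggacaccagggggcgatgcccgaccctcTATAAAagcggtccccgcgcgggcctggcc
Cebpb: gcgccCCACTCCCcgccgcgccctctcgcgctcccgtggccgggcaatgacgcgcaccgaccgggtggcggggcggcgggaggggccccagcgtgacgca
Windows of 250 bases before to 50 after the RefSeq start were searched on both strands, in 6 of the 9 members with an entry (Spi1, Cebpd and Adgre1 had none). The motifs were the PU.1 core GAGGAA (found in 28.3% of 32851 windows of this length), the C/EBP motif TTGCNNAA (10.8%), the RUNX motif TGTGGT (16.8%), the KLF motif GGGNGTGG (17.6%), the TATA motif TATAAA (13.6%) and the CRE TGACGTCA (1.79%). A GC box, GGGCGG, was searched as well (35.7%) and is left in lower case. In Cebpa only TATAAA matched, 30 bases before the start. In Cebpb the KLF motif matched on the reverse strand 95 bases before the start, TATAAA 22 bases after it, and the GC box 5 times. The Cebpb window is 80.7% GC and the Cebpa window 67.3%, beside a median of 52.7% over all windows. Runx1 has more than 1 window. In that at chr16:92697280-92697579 the PU.1 core matched on the reverse strand, 46 bases before the start. In that at chr16:92826025-92826324 the RUNX motif matched on the reverse strand, 29 and 37 bases after the start.

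Across the 7 genes listed under the C/EBP name, all of which were tested, 4 fell and 3 rose, with a median of -0.60 beside 0.08 for all genes. Cebpz is listed by its name, and the counts and median include it. Of all genes tested 40.2% rose and 32.3% fell. Cebpe, the granulocyte C/EBP, fell like the members, from 28.9 ± 1.41 to 11.5 ± 1.25 TPM (log2 change -1.26). The listed genes that rose were Cebpz, by 0.24, and Cebpg and Ddit3. The products of Cebpg and Ddit3 lack or alter the usual activity and can pair with the other C/EBP proteins to hold them back. Cebpg went from 16.4 ± 1.26 to 39.5 ± 2.54 TPM (1.22) and Ddit3, the stress-induced CHOP gene, from 290 ± 8.93 to 422 ± 11.7 TPM (0.54). Cebpz missed the threshold in 7 of 18 alternative settings and was at -0.068 with the GC trend taken off, whereas Cebpg and Ddit3 passed in all 18. Of 2 Ensembl identifiers with the symbol Ddit3 the one with reads was used.

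Of the close relatives Klf2 and Klf4 in the Krüppel-like family, Klf2 fell and Klf4 did not pass. Klf2, on chr8:72319033-72321656 (plus strand, 3 exons), was at 56.15, 52.96, 55.67 and 51.09 TPM with LPS and 26.52, 28.68, 24.70 and 19.64 TPM with UDCA. No LPS + UDCA library came within reach of the LPS libraries, and replicate 4 was the lowest of both groups. The mean fell from 54.0 ± 2.38 to 24.9 ± 3.86 TPM (log2 change -1.10, SE 0.10, FDR = 1.0e-05). With a transcript GC content above that of 98.3% of the genes tested, Klf2 changed by -0.92 with the GC trend taken off (FDR = 7.5e-06), and by -0.99 without LPS + UDCA replicate 4.

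Klf4, on chr4:55527143-55532466 (minus strand), was near 4 TPM in both groups. The LPS libraries held 6.17, 4.45, 3.46 and 3.57 TPM and the LPS + UDCA libraries 3.63, 3.98, 4.18 and 4.68 TPM. The ranges overlapped, LPS replicate 1 being the highest of all 8. The change of -0.06 (SE 0.15, FDR = 0.75) was smaller than its error, and it was 0.09 without LPS replicate 1 and 0.06 with the GC trend taken off. A difference in Klf4 was therefore not detectable with these libraries.

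For this pair 100 bases are given from ahead of the gene, for Klf2 those before the GENCODE start (chr8:72318933-72319032, plus strand), which are bases -129 to -30 from the RefSeq start, and for Klf4 those just before the RefSeq start (chr4:55532476-55532575, minus strand, written on the gene's strand). The stretches are thus not cut at the same distance from the RefSeq start.
Klf2: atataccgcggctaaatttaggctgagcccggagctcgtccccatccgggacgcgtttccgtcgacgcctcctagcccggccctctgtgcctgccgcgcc
Klf4: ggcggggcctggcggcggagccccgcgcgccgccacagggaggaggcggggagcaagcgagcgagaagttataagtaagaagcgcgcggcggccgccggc
Neither whole window matched a searched motif other than the GC box, which occurred 2 times for Klf2 and 4 times for Klf4. The windows hold 69.3% and 74.3% GC.

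Of the 17 KLF genes 10 were tested, of which 6 rose, 2 fell and 2 did not pass, with a median of 0.47. Of all genes tested 40.2% rose and 32.3% fell, with a median of 0.08. Besides Klf2, the KLF gene that fell was Klf16, from 12.8 ± 1.90 to 6.74 ± 0.968 TPM (log2 change -0.83). Klf13 rose from 5.88 ± 0.264 to 10.6 ± 1.06 TPM (log2 change 0.75) and Klf7 from 8.51 ± 0.969 to 12.8 ± 1.67 TPM (0.53), although 38.7% of the words of Klf7 transcripts occur in other genes, mostly Gm26649. Klf6, which did not pass like Klf4, was at 10.3 ± 0.902 and 9.70 ± 1.38 TPM (FDR = 0.44), while with the GC trend taken off its change was -0.45 (FDR = 0.0022).

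Runx1 spans chr16:92601466-92826149 (minus strand). Its level was 25.23, 22.52, 25.70 and 26.81 TPM with LPS and 27.38, 28.72, 25.54 and 32.25 TPM with UDCA. The ranges overlapped through LPS + UDCA replicate 3, which was below 2 of the LPS libraries. The mean was 25.1 ± 1.82 against 28.5 ± 2.84 TPM, a log2 change of 0.18 (SE 0.080, FDR = 0.074) and p = 0.0857 by the exact permutation test. Runx1 passed only without LPS + UDCA replicate 3 (0.22, FDR = 0.033), and with the GC trend taken off the change was 0.02 (FDR = 0.86). Cbfb, the partner that stabilises RUNX proteins on DNA, was at 28.4 ± 1.64 and 32.8 ± 3.19 TPM, a change of 0.20 (FDR = 0.038). It missed the threshold in 10 of 18 alternative settings. With the GC trend taken off Cbfb passed in the other direction, at -0.15 (FDR = 0.048). Among 7 tested genes of the RUNX list, 3 rose (Cbfb, Tle1 and Cbfa2t2), 2 fell (Runx2 and Tle3) and 2 did not pass (Runx1 and Tle4). With the GC trend taken off, 2 of the list rose and 3 fell. The median of the list was 0.18, beside 0.08 for all genes tested, of which 40.2% rose and 32.3% fell. Tle1 missed the threshold in 3 of 18 alternative settings. The co-repressor Tle3 fell from 24.5 ± 2.21 to 11.2 ± 0.515 TPM (-1.06) and Cbfa2t2, of the ETO co-repressor family, rose from 4.06 ± 0.327 to 8.30 ± 2.82 TPM (0.84).

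The identity genes moved in opposite directions. Adgre1 lies on chr17:57358691-57483527 (plus strand, 23 exons), and none of its 31-base words occur in another gene. The LPS libraries held 46.67, 47.37, 41.40 and 51.04 TPM and the LPS + UDCA libraries 115.08, 117.75, 121.30 and 102.37 TPM. The lowest library with UDCA, at 102.37 TPM, stood far above the highest without it, at 51.04 TPM. The mean rose from 46.6 ± 3.97 to 114 ± 8.24 TPM, 2.45 times the LPS level (log2 change 1.27, SE 0.073, FDR = 4.6e-07), and 557 genes had a higher change. By mean level among the genes tested, Adgre1 moved from place 2542 to place 1050.

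Lyz2, on chr10:117277331-117282321 (minus strand, 4 exons), was among the most abundant transcripts of the LPS libraries, at 1848.05, 2025.69, 2039.16 and 2040.52 TPM. With UDCA it was at 443.91, 457.22, 430.67 and 410.38 TPM. The groups lay far apart, and LPS replicate 1 was set off below the other 3 LPS libraries. The mean fell from 1988 ± 93.8 to 436 ± 20 TPM, which is 4.57-fold lower (log2 change -2.19, SE 0.045, FDR = 1.3e-09), and 139 genes had a lower change. Its place by mean level went from 92 to 313. With the GC trend taken off, the changes were 1.14 for Adgre1 and -2.27 for Lyz2.

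Lyz1, the lysozyme gene of Paneth cells, lies next to Lyz2 on chr10:117287797-117292868. The coding sequences are both 444 bases long and differ at 22 of them, with a longest identical run of 118 bases, so that short reads from some stretches fit both genes. The first 120 bases, from GENCODE M21 on GRCm38, hold 11 of the differences, which are in capitals.
Lyz2: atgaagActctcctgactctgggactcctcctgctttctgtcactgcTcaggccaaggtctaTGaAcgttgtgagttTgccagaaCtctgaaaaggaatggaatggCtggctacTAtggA
Lyz1: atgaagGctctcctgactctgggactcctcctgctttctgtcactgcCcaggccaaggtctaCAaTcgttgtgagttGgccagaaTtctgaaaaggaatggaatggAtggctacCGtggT
Of the 31-base words of Lyz2 transcripts 32.8% also occur in another gene, and for Lyz1 the share is 34.2%. Lyz1 was at 13.08, 15.05, 14.98 and 13.09 TPM with LPS and 3.76, 2.56, 3.31 and 3.80 TPM with UDCA, a fall of 1.80 on the log2 scale. Within each library Lyz1 thus stood at less than 1% of Lyz2. The log2 ratio of Lyz1 to Lyz2 was -7.15 ± 0.096 with LPS and -7.04 ± 0.32 with UDCA (exact permutation test, p = 0.54), and whether the Lyz1 values are reads of Lyz2 was not tested. The promoter windows of the pair are 82.5% identical over 302 aligned positions. The RUNX motif matched once in that of Lyz2, 66 bases before the RefSeq start, and the C/EBP motif once in that of Lyz1, 209 bases before it.

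**Figure D2:**
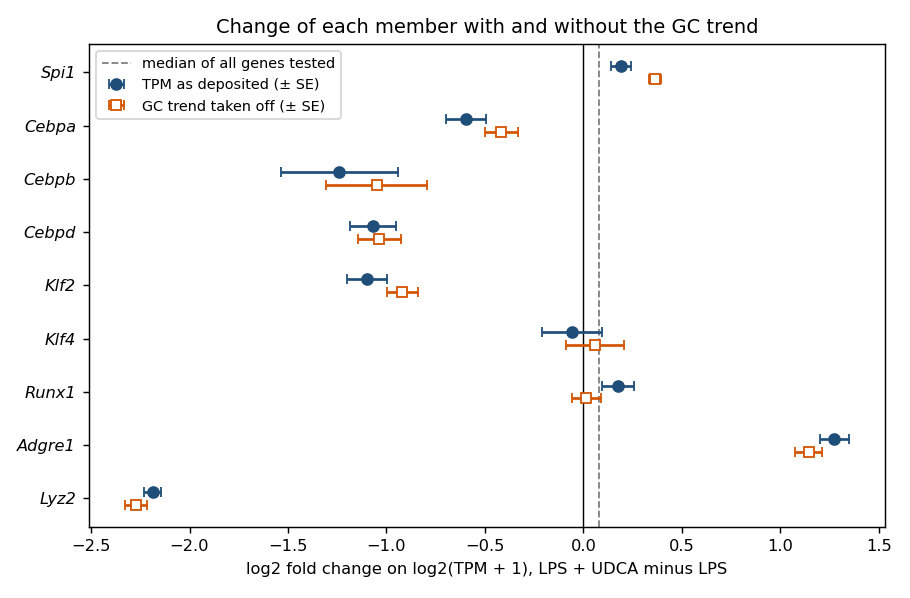
Log2 fold change of the 9 genes (x axis, LPS + UDCA minus LPS, on log2(TPM + 1)) with its SE, from the TPM as deposited (filled circles) and with the GC trend taken off (open squares), beside the median of all genes tested (dashed line at 0.08). Adgre1 stands at 1.27 and Lyz2 at -2.19, and Klf4 lies on either side of 0 in the settings shown.

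By level, the LPS libraries were ordered Lyz2, Spi1, Cebpb, Cebpd, Klf2, Adgre1, Runx1, Cebpa and Klf4, and of these neighbours only Cebpb and Cebpd had overlapping ranges. With UDCA the order was Lyz2, Spi1, Adgre1, Cebpd, Cebpb, Runx1, Klf2, Cebpa and Klf4. Adgre1 passed 3 of the factors and Runx1 passed Klf2. Here the ranges of Cebpd and Cebpb, of Runx1 and Klf2, and of Cebpa and Klf4 overlapped, and the other neighbours were apart. LPS + UDCA replicate 4 was the lowest of its group for 7 of the 9 genes, all but Klf4 and Runx1, in which it was the highest.

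The balance between related genes was compared within each library, where no scaling enters. The log2 ratio of Spi1 to Cebpa was 5.14 ± 0.11 with LPS and 6.02 ± 0.21 with UDCA, and the groups did not overlap, so that PU.1 transcripts went from 35.3 to 65.6 times the level of C/EBPα transcripts on average. Klf4 relative to Klf2 went from -3.65 ± 0.36 to -2.59 ± 0.37, also without overlap. Cebpd relative to Cebpa went from 3.56 ± 0.10 to 3.17 ± 0.25, with the lowest LPS library at 3.45 and the highest LPS + UDCA library at 3.37. Each of these 3 differences had p = 0.0286 in the exact 2-sided permutation test, but 0.0667 after Benjamini-Hochberg adjustment over the 7 ratios compared, so that none passed. The ratios of Cebpb to Cebpa (difference -0.56, p = 0.11, adjusted 0.20), Cebpd to Cebpb (0.17, p = 0.60, adjusted 0.70) and Runx1 to Cbfb (-0.03, p = 0.83, adjusted 0.83) overlapped between groups by the same exact permutation test. The Lyz1 to Lyz2 ratio had an adjusted p of 0.70.

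**Figure D3:**
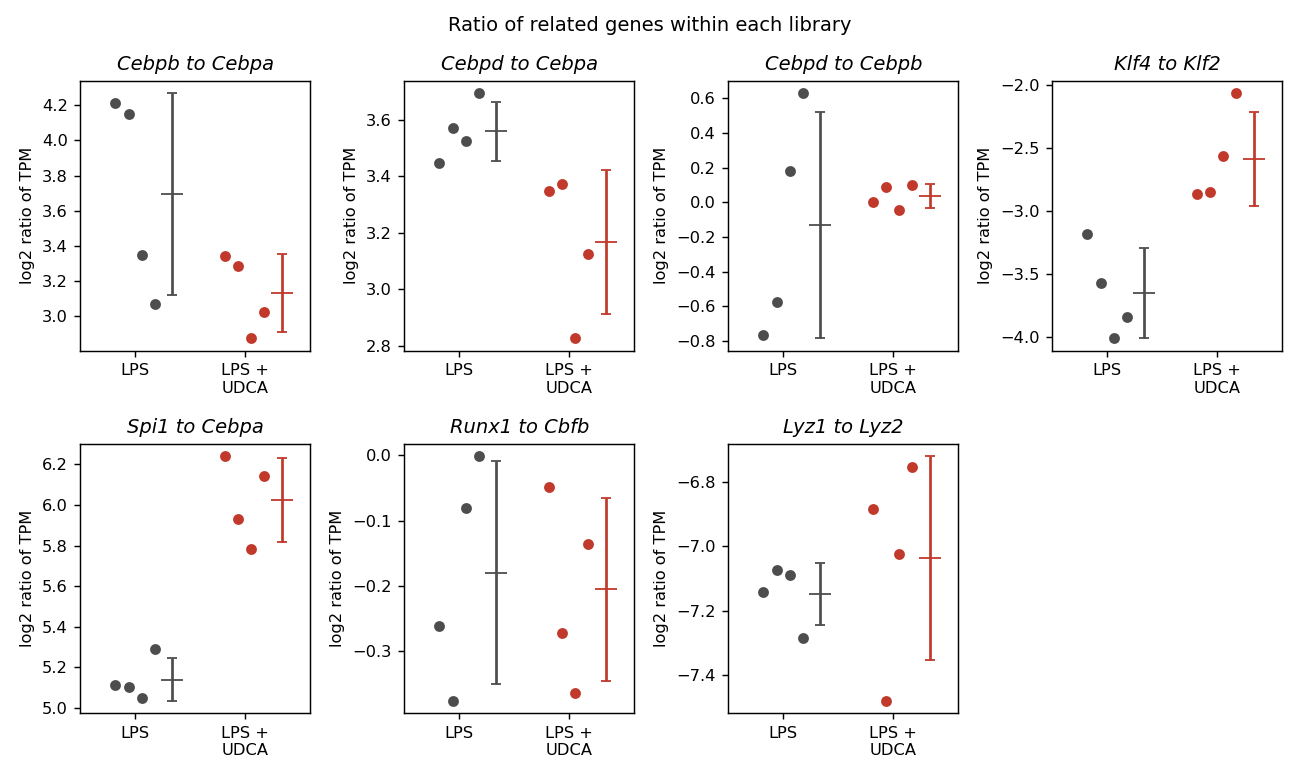
Log2 ratio of TPM of 7 pairs of related genes (y axis) within each LPS (grey) and LPS + UDCA (red) library, replicates 1 to 4 from left to right, with mean ± SD. Only Spi1 to Cebpa, Klf4 to Klf2 and Cebpd to Cebpa show groups without overlap.

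Of 26 other macrophage and myeloid factors tested from 40 listed, 16 fell, 6 rose and 4 (Irf5, Tfeb, Id2 and Mef2d) did not pass, with a median of -0.42. Of all genes tested 32.3% fell and 40.2% rose, with a median of 0.08. Irf8, the factor that works with PU.1 in monocytes, fell from 35.4 ± 1.76 to 21.0 ± 1.86 TPM (log2 change -0.73). Egr1, an immediate-early factor, fell from 35.9 ± 3.99 to 3.42 ± 0.554 TPM (-3.07). Irf5, at 82.0 ± 4.20 and 85.9 ± 3.19 TPM, did not pass (FDR = 0.22), though its change was 0.22 (FDR = 0.0015) with the GC trend taken off and it passed under quantile normalization as well. Id2 did not pass either, at 5.78 ± 1.06 and 5.89 ± 0.930 TPM (FDR = 0.87), while Id3 fell from 62.7 ± 2.55 to 38.8 ± 4.46 TPM (-0.68). Bach1, a heme-regulated repressor, rose from 1.91 ± 0.177 to 10.8 ± 1.27 TPM (2.01).

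Among 17 tested regulators of the members, 7 rose, 7 fell and 3 (Id2, Mef2d and Cop1) did not pass. Their median change was 0.11, beside 0.08 for all genes tested, of which 40.2% rose and 32.3% fell. In the fit with the GC trend taken off, Cop1 was at -0.38 (FDR = 0.0038). The pseudokinase genes Trib1 and Trib3 moved in opposite directions. Trib1, whose product brings C/EBPα to its degradation, fell from 7.0 ± 0.582 to 1.03 ± 0.273 TPM (log2 change -1.99), and Trib3, a stress-response relative, rose from 93.8 ± 2.54 to 221 ± 4.16 TPM (1.23). Mef2d, a MEF2 factor of the class that acts upstream of Klf2, was at 58.2 ± 3.02 and 62.7 ± 3.76 TPM and did not pass (FDR = 0.11), but had a change of 0.24 with the GC trend taken off (FDR = 8.8e-04). Its relatives in the list moved in opposite directions. Mef2a rose from 11.9 ± 1.40 to 25.6 ± 2.58 TPM (1.04) and Mef2c fell from 12 ± 1.80 to 7.1 ± 0.180 TPM (-0.67).

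The identity list held Adgre1 and Lyz2 and 22 further tested genes. Of all 24 tested from 30 listed, 14 fell, 7 rose and 3 (Aif1, Laptm5 and Fcer1g) did not pass, with a median of -0.52. Of all genes tested 40.2% rose and 32.3% fell, with a median of 0.08. In the identity list a fold change of at least 2 was reached by 9 downward and 2 upward, the latter being Adgre1 and Fcgr1. Among all genes tested, 8.44% did so downward and 8.71% upward. With the GC trend taken off, 14 of the list fell and 6 rose. Ptprc and Tlr4 were no longer among those that rose, and Laptm5 rose in that setting (0.20, FDR = 2.2e-04). Siglec1, a sialic-acid binding receptor induced by interferon, fell from 16.2 ± 1.43 to 0.455 ± 0.106 TPM (log2 change -3.56). Itgam, the CD11b gene, fell from 176 ± 11.3 to 22.7 ± 2.50 TPM (-2.91), and 68.3% of the words of its transcripts also occur in other genes, mostly in Gm49368, yet the summed level of both was 176 to 204 TPM with LPS and 22.3 to 29.0 TPM with UDCA. Csf1r, the receptor for the growth factor that macrophages need, fell from 112 ± 4.93 to 43.2 ± 2.79 TPM (-1.35), and the lysosomal Cd68 from 542 ± 4.48 to 206 ± 2.41 TPM (-1.39). Of the words of Csf1r transcripts 14.6% are shared with Hmgxb3. Cd14, the LPS co-receptor, fell from 1205 ± 44.5 to 922 ± 58.3 TPM (-0.39). In the other direction Fcgr1, the high-affinity IgG receptor, rose from 37.7 ± 1.35 to 107 ± 9.20 TPM (1.48), and Lgals3, galectin-3, from 980 ± 18.4 to 1723 ± 82.9 TPM (0.81).

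Of 18 tested genes taken from textbooks as PU.1 targets, 12 fell, 5 rose (Itgb2, Fcgr1, Ncf1, Tlr4 and Btk) and 1 (Fcgr2b) did not pass, with a median of -0.71. Of all genes tested 40.2% rose and 32.3% fell, with a median of 0.08. Several of the textbook genes are also in the identity list. With the GC trend taken off, 13 fell and 3 rose, Tlr4 being at 0.059 and Btk at 0.0093. Btk missed the threshold in 13 of 18 alternative settings. Tyrobp, the adaptor DAP12, fell from 628 ± 28.5 to 469 ± 26.4 TPM (log2 change -0.42). In these bulk libraries fewer expressing cells and less RNA per cell cannot be told apart. Of 22 genes that mark resident macrophages of particular tissues, 17 were under 1 TPM, 7 of them at 0 in every library, and 5 were tested. Nr1h3, the LXRα gene, rose from 6.34 ± 1.00 to 14.1 ± 1.53 TPM (1.05) and Folr2 from 21.8 ± 4.12 to 41.5 ± 7.64 TPM (0.90), the latter with 56.9% of its words in other genes.

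**Figure D4:**
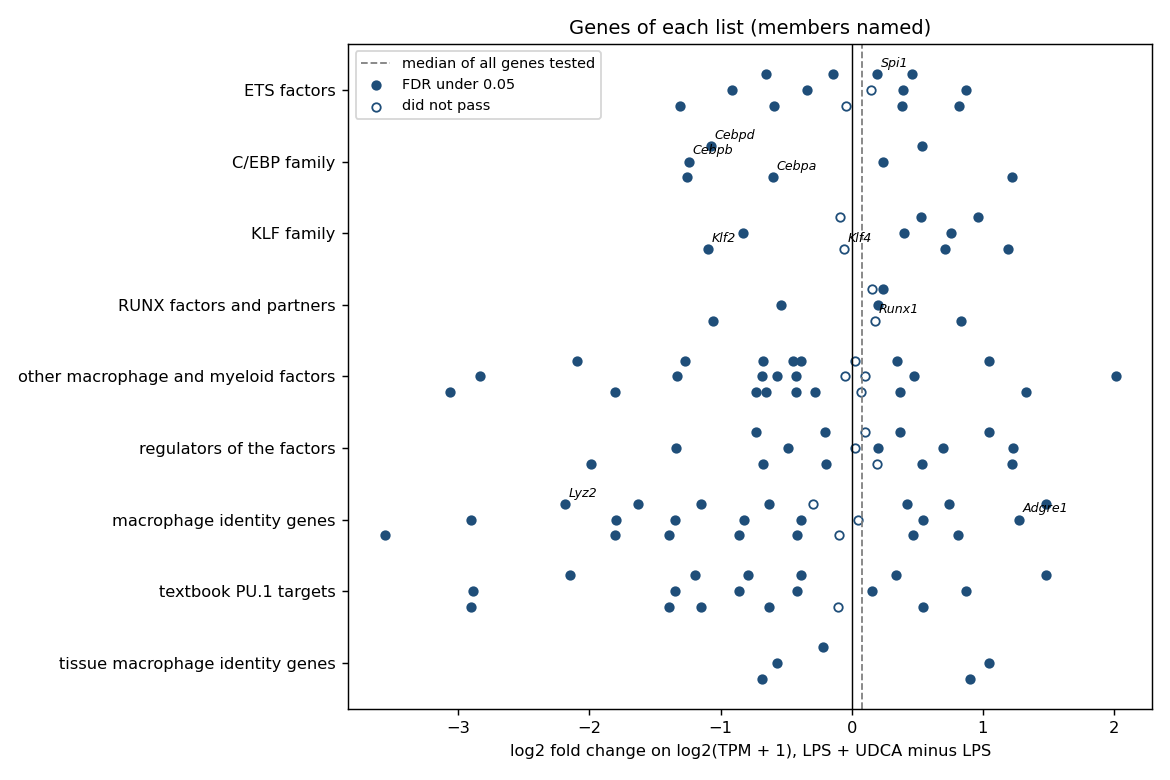
Log2 fold change (x axis, LPS + UDCA minus LPS) of every tested gene of the 9 lists (rows), filled where the FDR was under 0.05, with the 9 members named and the median of all genes as a dashed line. The points of the identity list run from -3.56 for Siglec1 to 1.48 for Fcgr1, and vertical offsets within a row only separate the points.

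The genes for the surface proteins stained in the study's flow cytometry were read as well. Adgre1 rose and Itgam fell, as given above. Itgax, the CD11c gene, was at 0.593 ± 0.440 and 0.605 ± 0.160 TPM and Mrc1, the CD206 gene, at 0.01 TPM or less in every library, and neither was tested.

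Genes were also ranked by how their log2(TPM + 1) followed each member over the 8 libraries (Pearson's r, a description, since the group difference alone makes many genes alike). The closest gene was Rhof for Spi1 (0.983), Rnf5 for Cebpa (0.989), Nlgn2 for Cebpb (0.982), Pitpna for Cebpd (0.998), Adap1 for Klf2 (0.9997), Casp8ap2 for Klf4 (0.990), Gm2011 for Runx1 (0.934), Ticam1 for Adgre1 (0.997) and Sephs2 for Lyz2 (0.9996). The number of genes with r over 0.95 was 2040 for Lyz2, 1899 for Adgre1, 1535 for Klf2 and 1334 for Cebpd. It was 223 for Cebpa, 46 for Spi1, 21 for Cebpb, 1 for Klf4 and 0 for Runx1. Nlgn2, the neuroligin gene closest to Cebpb, was itself low, at 2.72 ± 0.823 and 1.27 ± 0.0746 TPM.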

How the data were processed

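RNA of J774A.1 cells (4 LPS and 4 LPS + UDCA libraries, TruSeq kit) was sequenced, and the authors deposited one table of TPM for 55487 genes, with 0 columns of values left unused. The submitters' processing notes name Bowtie 0.12.2, mm10 and GRCm38, with no role given, and the counting program is not given in the sources used here. Sums of the deposited TPM were 973190 to 977485 (LPS) and 958918 to 962737 (LPS + UDCA), and no read depth can be recovered, so that precision rests on the 4 replicates.

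The 11796 genes whose mean TPM was 1 or more were fitted as log2(TPM + 1) with limma 3.58.1 in R 4.3.3 (mean-variance trend), with Benjamini-Hochberg FDR over all of them. Rose and fell mean an FDR under 0.05. Ratios of 2 genes and single genes were tested by exact 2-sided permutation. The fit was tested on simulated data, where 80 of 93 genes at a log2 change of 1 and 103 of 107 at 2 were recovered, with 9 false calls among 11596. The simulated noise was independent between genes and libraries, without a GC trend or replicate effect. Far fewer genes were changed in it than were called here, so it cannot give the rate of false calls in these libraries. Of the 55487 identifiers, 55141 were found in GENCODE M21, which gave coordinates (GRCm38) and GC content. Promoters came from RefSeq (GRCm38.p6). Alternatives covered the pseudocount, filter, scaling, trend, replicate block, GC content and each library left out. Same-numbered libraries were checked for shared deviations and were not paired in the main fit.

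The members and lists were chosen with earlier results of these data known. Named are the 9 members, Lyz1, Cbfb, Csf1r, Irf8, Id2, Trib1, Ddit3, Itgam, Itgax and Mrc1, in every other list the 3 genes of highest mean TPM and the highest and lowest change among those with an FDR under 0.05 and a mean of at least 5 TPM, and the gene most correlated with each member. Other genes were named after their values were seen, to complete a count of 5 or fewer, as markers at 0, as relatives of a named gene or as partners in shared sequence. Some genes that the rule names are not reported here.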

Additional observations from a re-analysis of the deposited data

Results flagged for a closer look

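In 4 groups of values one library stood apart from the other 3, among 106 groups screened, where chance alone flags about 5.3. Lyz2 in LPS replicate 1 was the lowest at 1848.05 TPM, with the others at 2025.69 to 2040.52 TPM. Tyrobp in the same library was the lowest at 585.04 TPM, against 637.49 to 643.84 TPM. Fcgr1 in LPS + UDCA replicate 2 was the highest at 120.85 TPM, against 100.85 to 104.1 TPM. Cbfa2t2 in LPS + UDCA replicate 4 was the highest at 12.5 TPM, against 6.46 to 7.22 TPM. In none of these did a library cross into the range of the other group.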

How the results depend on the processing

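The 18 alternative fits left 6 of the 7 calls among the members in place, with ranges of -0.69 to -0.42 for Cebpa, -1.50 to -1.03 for Cebpb, -1.19 to -0.99 for Cebpd, -1.18 to -0.92 for Klf2, 1.14 to 1.33 for Adgre1 and -2.27 to -2.09 for Lyz2. The exception was Spi1, at 0.11 (FDR = 0.072) with the median of all genes taken off each library, so that 1 member rose there, while the other alternatives gave 0.11 to 0.36 and passed. With the GC trend taken off, Klf4 was at 0.062. Leaving out each library in turn gave Klf4 -0.14 to 0.086, Runx1 0.12 to 0.22 and 2 to 4 members lower by a fold of 2. Genes higher by a fold of 2 numbered 1028, and 683 among the 8907 genes whose mean reached 5 TPM, where the smaller number of genes tested accounts for part of the drop. Of the calls with a fold of 2, 50.8% were upward, against 41.8% with the median and 40.9% with the GC trend taken off.

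Leaving out each library gave ratios of -0.77 to -0.39 for Cebpb to Cebpa, -0.46 to -0.28 for Cebpd to Cebpa, -0.040 to 0.42 for Cebpd to Cebpb, 0.89 to 1.22 for Klf4 to Klf2, 0.81 to 0.97 for Spi1 to Cebpa, -0.091 to 0.034 for Runx1 to Cbfb and 0.018 to 0.26 for Lyz1 to Lyz2. Cebpd to Cebpb turned to -0.040 without LPS replicate 1, and Runx1 to Cbfb to 0.0079 without LPS replicate 3, to 0.034 without LPS replicate 4 and to 0.027 without LPS + UDCA replicate 3. The causes were not tested.

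With a replicate block the differences of Cebpd to Cebpa (-0.39), Klf4 to Klf2 (1.06) and Spi1 to Cebpa (0.89) had p = 0.125 in an exact sign-flip permutation test, the smallest that 4 pairs allow. The block gave 4634 genes higher and 3737 lower and changed no call of a member. Deviations of same-numbered libraries correlated at -0.035 to 0.15, over 0.1 in 3 of 4 pairs, against -0.14 to 0.16 for the other 12. Of the libraries, 2 of 4 LPS and 3 of 4 LPS + UDCA correlated best with their own number. These values do not settle whether the numbers pair the libraries, and the main fit left them unpaired. The depth is unknown, and 4 libraries a group limit what can be seen in genes of low TPM such as Klf4.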
